A study of Homo sapiens with 5 samples.

Results

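The genes described here were the 5 subunits of the MuvB core (LIN9, LIN37, LIN52, LIN54 and RBBP4), the 3 activators that join or follow it through the cell cycle (FOXM1, MYBL1 and MYBL2) and the DP partners of the E2F factors (TFDP1 and TFDP2). They were taken from the table of raw counts by gene symbol, and all 10 were found among its 26485 genes. All 10 also passed the filter on low counts, which kept 14187 genes. The RNA-seq data comprised 5 libraries of RPE1, an established wild-type line of human retinal pigment epithelial cells, with no other allele or agent named in the labels. Of these, 2 libraries came from cells treated with DMSO, the solvent, 2 from cells treated with 0.2 µM doxorubicin and 1 from cells treated with 0.34 µM doxorubicin, each for 18 h. Doxorubicin is an anthracycline that poisons topoisomerase II and gives DNA double-strand breaks. The doses are those of the sample titles, while the labels' description of the treatment gives larger figures in the same unit. The study's methods call the libraries biological replicates and count the 0.34 µM library among those of doxorubicin, and the labels do not say how the cultures were kept apart.

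MuvB is a small complex that stays assembled through the cell cycle and changes its partners. In resting or arrested cells it binds RBL1 or RBL2, E2F4 or E2F5 and a DP protein to form DREAM, which represses cell cycle genes. In cycling cells it lets these partners go and binds B-MYB, the product of MYBL2, and later FOXM1, and then activates the genes of G2 and mitosis. LIN54 contacts a promoter element called CHR (cell cycle genes homology region), while the E2F and DP proteins contact E2F sites, and CDKN1A, a CDK inhibitor induced by DNA damage, favours the DREAM form.

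Promoter windows of these genes were searched for elements of these kinds, and a few stretches are shown because they hold matches. Sequences were read from RefSeq windows on GRCh38.p14, from 250 bases before to 50 bases after each start, and 8 of the 10 genes matched a window. FOXM1 and MYBL1 did not. The forms searched on both strands were TTTGAA or TTCGAA for CHR, TTTNNCGC, GGCGGGA or TTGGCGC for E2F, and CCAAT. They were chosen with the windows of these genes in view, and capitals mark every match.

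The first set shows E2F matches in the 120 bases before the start of MYBL2 (chr20:43666994-43667113, plus strand), RBBP4 (chr1:32651088-32651207, plus strand) and LIN52 (chr14:74084836-74084955, plus strand), of which MYBL2 fell in doxorubicin while RBBP4 and LIN52 did not pass the test. RBBP4 also has CCAAT there, in reverse, and in LIN52 a pair of E2F forms overlap.
MYBL2: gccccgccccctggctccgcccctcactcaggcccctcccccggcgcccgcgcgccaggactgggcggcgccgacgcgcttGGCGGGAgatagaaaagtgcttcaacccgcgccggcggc
RBBP4: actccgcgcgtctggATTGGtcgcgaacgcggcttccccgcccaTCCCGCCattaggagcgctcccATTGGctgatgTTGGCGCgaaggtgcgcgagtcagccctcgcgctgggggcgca
LIN52: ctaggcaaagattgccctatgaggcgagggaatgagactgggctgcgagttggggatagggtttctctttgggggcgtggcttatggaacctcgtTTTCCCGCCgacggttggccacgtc

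The second set shows a stretch of 30 bases with a CHR match in each of 3 core subunits, in LIN54 (chr4:83010897-83010926, minus strand), LIN9 (chr1:226309198-226309227, minus strand) and LIN37 (chr19:35748629-35748658, plus strand). Relative to the start of its window, the match begins at -100 or -89 in LIN54, -60 in LIN9 and -182 in LIN37. LIN9 and LIN37 also have windows without a CHR match. All 3 stretches lie inside the gene spans given below, not before their outermost starts. In LIN54 and LIN37 the same 30 bases also hold an E2F match, and LIN9 has a second CHR match across the start of the same window, which is not shown.
LIN54: gcgTTTGAAggttggcggggcGGCGGGAgg
LIN9: gcaTTCGAAcctccctcgcaaagacagtct
LIN37: atcTTTGAActgtccccgccttcTCCCGCC

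Over all genes with a window, 19.5% of 27305 held CHR, 25.2% held E2F and 39.7% held CCAAT. Of the 8 genes described here, 8 held E2F, 4 held CHR and 4 held CCAAT in at least 1 window. Because the forms were chosen with these windows in view, the shares of the 8 genes are no test of enrichment. Both CHR and E2F were found in the same window in 3 of the 8, which were LIN9, LIN37 and LIN54, against 2.66% of all genes. TFDP2 held CHR and E2F in different windows. The 8 genes had 15 windows, and a gene with more windows has more room for a match. By window, 40% held CHR, 66.7% E2F and 33.3% CCAAT. The shares over all 35116 windows were 16.4%, 21.9% and 34.6%. Of the genes of G2 and mitosis listed below, 26 of 35 with a window (74.3%) held CHR and 30 (85.7%) held CCAAT. Both CHR and CCAAT were found in the same window in 24 of these 35 (68.6%), in 7.85% of all genes and in 0 of the 8. LIN37 and TFDP2 held CHR and CCAAT in different windows. Of the genes of the G1/S transition, 28 of 29 (96.6%) held E2F and 3 held CHR. A match describes the letters of a window and is not a bound site.

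The libraries held 23773061 to 36725345 counts on genes, so the 10 genes were counted with between 68 reads (LIN9 in a 0.2 µM library) and 8257 reads (FOXM1 in a DMSO library). Levels are given as CPM, in which the counts are scaled to the size of each library with TMM normalization. Of 10 markers of the retinal pigment epithelium, 7 passed the filter and 0 were called by edgeR's test. At an unadjusted p under 0.05, 4 were higher, as were 15.2% of all genes tested, and 1 was higher with DESeq2. The mean of DMSO and of doxorubicin was 357 and 653 CPM for KRT8 and 282 and 436 for KRT18. It was 0.231 and 1.15 for PMEL and 0.77 and 2.83 for BEST1, the others of these 4. RPE65, RLBP1 and TYR, which define the mature tissue, were at or near 0, with at most 0.305 CPM in any library, while MITF, between 29.1 and 56.7 CPM, and OTX2, between 23.5 and 29.4 CPM, were present in every library. The 10 markers summed to between 6442 and 6579 CPM in DMSO and between 5761 and 6476 CPM in doxorubicin, most of it VIM, which many cultured cells express. Of 5 markers of other cell types, CD3E was at 0 counts in all libraries and EPCAM and PECAM1 had at most 0.457 CPM. PTPRC was at 0.191 and 0.274 CPM in DMSO and between 0.967 and 2.2 in doxorubicin, and CDH5 differed within each condition, between 0.0763 and 2.19 CPM in DMSO. These 5 summed to 0.42 and 2.7 CPM in DMSO and to between 1.43 and 5.57 CPM in doxorubicin, with 0 called by edgeR, 1 higher at an unadjusted p under 0.05 and 1 higher with DESeq2. Their part in the results was not tested. The libraries are bulk RNA, so a changed mix of cell cycle phases and a changed RNA level per cell cannot be told apart in any value that follows. By the paper's flow cytometry, the share of cells in G2/M rose after 18 h of doxorubicin. How that share bears on the RNA levels was not tested.

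In doxorubicin, 4 of the 10 genes fell and 0 rose at an adjusted p under 0.01 in the quasi-likelihood test of edgeR (p adjusted by Benjamini-Hochberg), which compared the 3 doxorubicin libraries with the 2 DMSO libraries. The genes that fell were FOXM1 and MYBL2, the activators of G2 and mitotic genes, and LIN9 and LIN54, subunits of the core. Over all genes tested, 2.73% were called lower and 1.29% higher. The log2 fold change was negative for 9 of the 10 genes, with a median of -0.79 against 0.01 over all genes tested. For 8 of the 10, every doxorubicin library was below both DMSO libraries, as it was for 23.4% of all genes tested. LIN37 and MYBL1 were the exceptions. With DESeq2, which called 8.18% of its genes lower, 5 of the 10 were lower, LIN52 being the addition, and limma voom, which called 2.59% of all genes lower, called 4. At an unadjusted p under 0.05 in edgeR's test, 8 were lower and 0 higher, against 15.6% and 15.2% of all genes.

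**Figure D1:**
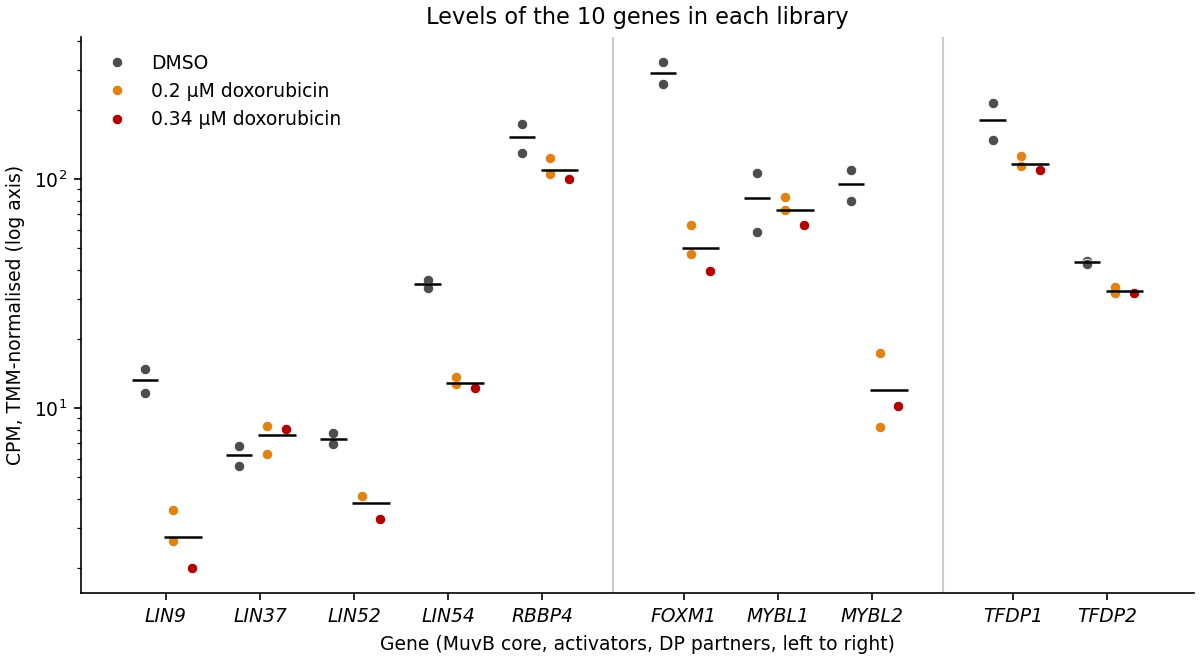
CPM of each gene (log axis) in the 2 DMSO libraries (grey), the 2 libraries at 0.2 µM doxorubicin (orange) and the 1 library at 0.34 µM (red), with bars at the mean of the DMSO and of the doxorubicin libraries. FOXM1, MYBL2, LIN9 and LIN54 lie well apart between the treatments, while the libraries of LIN37 and MYBL1 overlap.

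The core subunits did not respond alike, since the 95% interval of LIN9 (-2.99 to -1.56) and that of LIN37 given below lay apart. LIN9 (chromosome 1 of GRCh38, 226231149 to 226309767), which holds the core together and helps it bind B-MYB, was at 11.6 and 14.8 CPM in DMSO, at 2.63 and 3.58 CPM at 0.2 µM and at 2.01 CPM at 0.34 µM. All doxorubicin libraries were low and the groups were far apart. LIN9 fell from 13.2 ± 2.27 (SD, n = 2) to 2.74 ± 0.788 CPM (SD, n = 3), a log2 fold change of -2.27 (SE 0.30, adjusted p = 0.00593, edgeR's quasi-likelihood test).

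LIN54 (chromosome 4, 82924603 to 83012941), the subunit that reads the CHR element, was at 36.1 and 33.3 CPM in DMSO, at 12.7 and 13.6 CPM at 0.2 µM and at 12.3 CPM at 0.34 µM. The libraries of each treatment lay close together, and the groups did not overlap. LIN54 fell from 34.7 ± 1.98 (SD, n = 2) to 12.8 ± 0.682 CPM (SD, n = 3), with a log2 fold change of -1.43 (SE 0.16, adjusted p = 0.0031, edgeR's quasi-likelihood test).

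LIN52 (chromosome 14, 74084956 to 74201493), which DYRK1A phosphorylates when DREAM forms, was at 6.94 and 7.76 CPM in DMSO, at 4.14 and 4.12 CPM at 0.2 µM and at 3.28 CPM at 0.34 µM. Its groups did not overlap, but the difference did not pass the threshold. The log2 fold change was -0.94 (95% interval -1.51 to -0.36), with an adjusted p of 0.0482 in edgeR's test and of 0.00863 in DESeq2.

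RBBP4 (chromosome 1, 32651208 to 32686211), a histone-binding protein that several chromatin complexes share, was at 130 and 173 CPM in DMSO, at 105 and 123 CPM at 0.2 µM and at 99.6 CPM at 0.34 µM. The highest doxorubicin library was only just under the lower DMSO library. Its log2 fold change of -0.47 (95% interval -0.90 to -0.04) did not pass the threshold (adjusted p = 0.134, edgeR's test).

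LIN37 (chromosome 19, 35748576 to 35754519), a subunit needed for repression by DREAM, was at 5.61 and 6.85 CPM in DMSO, at 8.35 and 6.32 CPM at 0.2 µM and at 8.1 CPM at 0.34 µM. The groups overlapped, and it was the only one of the 10 genes with a positive value, a log2 fold change of 0.29 (95% interval -0.29 to 0.86, adjusted p = 0.476, edgeR's test). LIN37 and LIN52 were counted with few reads, between 99 and 294 in every library.

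Of the activators, FOXM1 and MYBL2 had fitted changes larger than those of all 5 core subunits, although the intervals of FOXM1 (-3.09 to -2.01) and MYBL2 (-3.78 to -2.20) both overlapped that of LIN9, while MYBL1 did not pass the test. FOXM1 (chromosome 12, 2857680 to 2877174), the forkhead factor of G2 and mitotic genes, was at 258 and 323 CPM in DMSO, at 47.1 and 62.6 CPM at 0.2 µM and at 39.5 CPM at 0.34 µM. Even the highest doxorubicin library was far below the lower DMSO library. FOXM1 fell from 291 ± 46.2 (SD, n = 2) to 49.7 ± 11.8 CPM (SD, n = 3), a log2 fold change of -2.55 (SE 0.23, adjusted p = 0.00163, edgeR's quasi-likelihood test).

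MYBL2 (chromosome 20, 43667114 to 43716482), which encodes B-MYB, was at 110 and 80.4 CPM in DMSO, at 17.4 and 8.27 CPM at 0.2 µM and at 10.2 CPM at 0.34 µM. The 0.2 µM libraries differed from each other by 2.11-fold, and all 3 doxorubicin libraries were still far under DMSO. MYBL2 fell from 95 ± 20.7 (SD, n = 2) to 12 ± 4.83 CPM (SD, n = 3), with a log2 fold change of -2.99 (SE 0.33, adjusted p = 0.00324, edgeR's quasi-likelihood test). Ordered by fold change from the most negative, it stood at place 107 of the 14187 genes tested, FOXM1 at 167, LIN9 at 213 and LIN54 at 502.

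MYBL1 (chromosome 8, 66562175 to 66613218), which encodes A-MYB, the relative best known from male germ cells, was at 106 and 58.3 CPM in DMSO, at 73 and 83.1 CPM at 0.2 µM and at 63.2 CPM at 0.34 µM. All doxorubicin libraries lay between the DMSO libraries, which differed from each other by 1.82-fold. The log2 fold change was -0.17 (95% interval -0.80 to 0.46, adjusted p = 0.714, edgeR's test), and its sign rested on 1 library, since without DMSO replicate 1 it was 0.32. The interval of MYBL1 and that of MYBL2 were far apart.

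The DP partners, which bind DNA as dimers with E2F proteins both in DREAM and in its absence, were at lower levels in every doxorubicin library and did not pass the threshold. Every doxorubicin library was below both DMSO libraries for 23.4% of all genes tested. At an unadjusted p under 0.05 both DP partners were lower in edgeR's test, as were 15.6% of all genes tested. DESeq2 and limma voom also called 0 of the DP partners. TFDP1 (chromosome 13, 113584688 to 113641473) was at 148 and 214 CPM in DMSO, at 113 and 126 CPM at 0.2 µM and at 109 CPM at 0.34 µM. The DMSO libraries were farther from each other than the 3 doxorubicin libraries were among themselves. Its log2 fold change was -0.64 (95% interval -1.10 to -0.19, adjusted p = 0.0691, edgeR's test). TFDP2 (chromosome 3, 141944428 to 142149544) was at 43.8 and 42.5 CPM in DMSO, at 31.6 and 33.8 CPM at 0.2 µM and at 31.9 CPM at 0.34 µM. Its log2 fold change was -0.41 (95% interval -0.75 to -0.08, adjusted p = 0.102, edgeR's test).

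**Figure D2:**
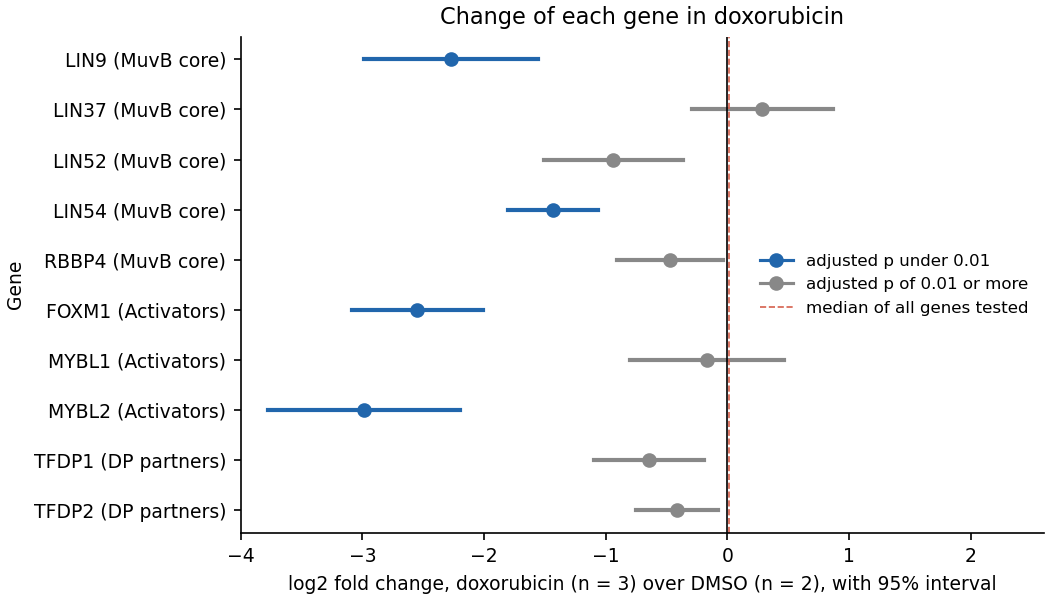
log2 fold change of each gene in doxorubicin (n = 3) over DMSO (n = 2) with its 95% interval, in blue where the adjusted p of edgeR's test was under 0.01, with the median of all 14187 genes tested as a dashed line. LIN9, LIN54, FOXM1 and MYBL2 lie below -1, and the intervals of LIN37 and MYBL1 include 0.

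With so few libraries the calls depended on single ones, although the direction of the 4 genes that fell did not change in any fit. Leaving out 1 library at a time, FOXM1 kept its call in 4 of 5 fits and lost it without DMSO replicate 2 (adjusted p = 0.0142, same edgeR test). MYBL2 kept it in 1 of 5, without replicate 1 at 0.2 µM, and its adjusted p in the others was between 0.0116 and 0.0203. LIN9 and LIN54 lost it in all 5, with adjusted p-values of 0.0122 to 0.0307 for LIN9 and 0.0118 to 0.0234 for LIN54. In these fits the log2 fold change of LIN9 was between -2.51 and -2.09, that of LIN54 between -1.51 and -1.38, that of FOXM1 between -2.74 and -2.40, and that of MYBL2 between -3.35 and -2.75.

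To compare genes with each other, CPM were divided by the gene length in kilobases, the union of exons. On this scale FOXM1 was the highest of the 10 in DMSO with a mean of 59.1 CPM per kilobase, followed by TFDP1 with 48.5, MYBL2 with 34.2, RBBP4 with 16.0 and MYBL1 with 11.3. LIN54 with 5.13, TFDP2 with 3.63, LIN9 with 2.97, LIN37 with 2.21 and LIN52 with 1.94 came last. The libraries of FOXM1 and TFDP1, of RBBP4 and MYBL1, and of LIN37 and LIN52 overlapped, so these neighbours in the order are not separated. With the longest transcript as the length, LIN37 had 3.81 CPM per kilobase and came just before LIN9 with 3.70, with overlap.

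In doxorubicin the order per kilobase was another one. TFDP1 came first with 31.0 CPM per kilobase, then RBBP4 with 11.5, FOXM1 and MYBL1 with 10.1 each, and MYBL2 with 4.32. RBBP4, FOXM1 and MYBL1 overlapped, and with the longest transcript as the length MYBL1 came before both others and LIN37, with 4.64, before MYBL2, with 4.43. LIN9 was the lowest with 0.617 CPM per kilobase, under LIN52 with 1.01, and these did not overlap. TFDP2 with 2.73 and LIN37 with 2.69 overlapped, and LIN54 followed with 1.90.

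The summed level of the 3 activators was 4.18 and 3.31 times that of the 5 core subunits in the DMSO libraries, per kilobase. It was 1.47 and 1.42 times at 0.2 µM and 1.24 times at 0.34 µM. RBBP4, which serves other complexes as well, was the largest part of the core sum, and without it the ratios were 9.06 and 8.07 in DMSO and 3.98, 4.43 and 3.40 in doxorubicin. On either sum all doxorubicin libraries were below both DMSO libraries.

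Within the activators, MYBL1 made up 13.7% and 7.84% of the summed level in DMSO and 38.9%, 42.2% and 42.7% in doxorubicin. MYBL1 stood at 0.370 and 0.278 times the level of MYBL2 in DMSO, and at 1.61 and 3.85 times at 0.2 µM and 2.37 times at 0.34 µM. MYBL1 itself was within the range of the DMSO libraries in all doxorubicin libraries, so the larger share came with lower levels of the other activators. With the longest transcript as the length, the share of MYBL1 was at most 15.3% in DMSO and at least 41.8% in doxorubicin.

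**Figure D3:**
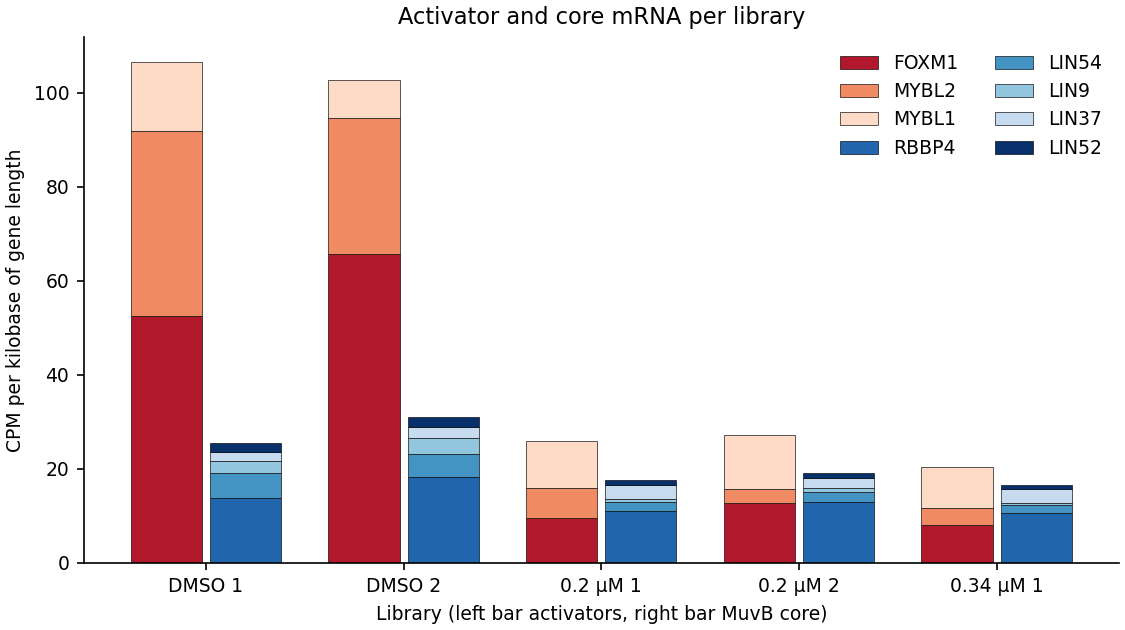
CPM per kilobase in each library, with the activators FOXM1, MYBL2 and MYBL1 stacked in the left bar and the 5 core subunits in the right bar. The activator bars drop from over 100 in DMSO to between 20.4 and 27.2 in doxorubicin, while the core bars drop less, from 25.5 and 31.0 to between 16.5 and 19.1.

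Between the doses no difference was detected, with 1 library at 0.34 µM and 2 at 0.2 µM. None of the 10 genes was called between 0.34 and 0.2 µM in edgeR's quasi-likelihood test, in a fit of 3 conditions where the lone library is assumed to vary like the others. The share of all genes called was 0%, with 22 genes at an unadjusted p under 0.05, and 0 of the 10 genes were among them. DESeq2 and limma voom also called 0 genes, with 26 and 14 at an unadjusted p under 0.05. The log2 difference between the doses was negative for 9 of the 10 genes, LIN37 being the exception. It was -0.62 for LIN9 (95% interval -1.69 to 0.44), -0.47 for FOXM1 (95% interval -1.20 to 0.25) and -0.33 for MYBL2 (95% interval -1.44 to 0.78), so that a further 2-fold fall lies within each of these intervals. For LIN54 the difference was -0.10 (95% interval -0.79 to 0.59).

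The partners that turn MuvB into DREAM were measured in the same fit. RBL1, the pocket protein that is itself a target of E2F, fell, while RBL2, E2F4 and E2F5, which are present in resting cells, did not pass the test. RBL1 was at 32.8 and 43 CPM in DMSO, at 7.08 and 9.73 CPM at 0.2 µM and at 7.27 CPM at 0.34 µM, with a log2 fold change of -2.24 (SE 0.22, adjusted p = 0.00211, same edgeR test). RBL2 was at 78.6 and 62.6 CPM in DMSO and between 73.7 and 78 CPM in doxorubicin, a log2 fold change of 0.10 (SE 0.15). E2F4 was between 37.7 and 46.9 CPM in every library, and E2F5 between 4.19 and 6.69, with log2 fold changes of -0.03 (SE 0.16) and 0.08 (SE 0.30). The groups overlapped for all 3. The call of RBL1 was lost in 3 of 5 fits that left out 1 library (without DMSO replicate 2, without replicate 1 at 0.2 µM and without the 0.34 µM library), with an adjusted p of up to 0.016.

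Of 13 regulators of the complexes (CDKN1A, DYRK1A, PLK1, SKP2, and cyclins and CDKs), 6 fell and 1 rose, against 2.73% and 1.29% of all genes tested. CDKN1A, the CDK inhibitor, was at 294 and 258 CPM in DMSO, at 2975 and 2366 CPM at 0.2 µM and at 3358 CPM at 0.34 µM, a log2 fold change of 3.39 (SE 0.23, adjusted p = 0.000768, same edgeR test). Without DMSO replicate 2 its adjusted p was 0.0132. DYRK1A, the kinase of LIN52, was at 73 and 56.3 CPM in DMSO and between 44.4 and 48.1 CPM in doxorubicin, a log2 fold change of -0.50 (SE 0.16, adjusted p = 0.0916, same edgeR test).

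The regulators that fell were CCNA2, CCNB1, CCNE2, CDK1, CDK2 and PLK1, that is, cyclins, kinases that pair with them and the mitotic kinase that acts on B-MYB. Of these, CCNA2, CCNB1, CDK1 and PLK1 are counted again among the genes of G2 and mitosis below. CCNE2, like RBL1, is counted again among the G1/S genes. PLK1 had a log2 fold change of -5.53 (SE 0.16), CCNA2 of -3.95 (SE 0.19) and CCNB1 of -3.87 (SE 0.36). CDK1 had one of -2.44 (SE 0.29) and CCNE2, the cyclin of G1/S, one of -3.58 (SE 0.51). With 1 library left out, PLK1 and CCNA2 kept their calls in all 5 fits, and CCNB1 lost its call without DMSO replicate 2 (adjusted p = 0.0133, same edgeR test). CDK1 kept its call only without replicate 2 at 0.2 µM and CDK2 only without DMSO replicate 1, and in the other fits the adjusted p reached 0.0255 for CDK1 and 0.0132 for CDK2. CCNE2 lost its call in all 5, with an adjusted p of up to 0.0322.

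Of 40 genes of G2 and mitosis, known targets of MuvB with B-MYB and FOXM1 and of DREAM, 39 fell and 0 rose, with a median log2 fold change of -3.63. Over all genes tested, 2.73% were called lower and 1.29% higher. For all 40 every doxorubicin library was below both DMSO libraries, as it was for 23.4% of all genes tested. The largest falls past the threshold were those of PLK1, KIF20A, a mitotic kinesin, with -5.52 (SE 0.21), and CENPA, the histone of the centromere, with -4.92 (SE 0.31). TOP2A, the topoisomerase that doxorubicin poisons, had a log2 fold change of -2.75 (SE 0.17) and AURKA, the spindle pole kinase, of -3.66 (SE 0.24). PTTG1, named after its values were seen, was the 1 that did not pass, with -1.72 (adjusted p = 0.0184, same edgeR test). Of the 10 genes described here, MYBL2 with -2.99 came nearest to this median. Without DMSO replicate 2 the count fell to 17 of the 40, and AURKA lost its call (adjusted p = 0.0102, same edgeR test), while KIF20A, CENPA and TOP2A kept theirs with any 1 library left out.

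Of 35 genes of the G1/S transition and DNA replication, 24 fell and 0 rose, with a median log2 fold change of -2.65. The shares called over all genes tested were 2.73% lower and 1.29% higher. At an unadjusted p under 0.05, 33 of the 35 were lower and 1 was higher, against 15.6% and 15.2% of all genes tested. The largest falls past the threshold were those of E2F2, an activating E2F, with -3.81 (SE 0.56), CCNE2, and MCM6, a subunit of the replicative helicase, with -3.45 (SE 0.36). E2F1 had a log2 fold change of -2.62 (SE 0.37) and MCM2 of -2.27 (SE 0.36), the latter with an adjusted p of 0.0108 in the same edgeR test. With 1 library left out, E2F2 lost its call in all 5 fits and E2F1 in all but that without DMSO replicate 1, where the adjusted p reached 0.0326 for E2F2 and 0.0281 for E2F1, and MCM6 lost it without DMSO replicate 2 and without replicate 2 at 0.2 µM (up to 0.0174). PCNA, the sliding clamp of DNA replication, named after its values were seen, had 1.01 (SE 0.36, adjusted p = 0.117, same edgeR test) and was the only one of the list with a positive value. Against the mean of the DMSO pair, the median of these genes was -0.39 on the log2 scale in DMSO replicate 1 and 0.39 in replicate 2, a wider gap than the -0.10 and 0.10 of the G2 and mitotic genes. With the replicate numbers as a block, in a fit without the 0.34 µM library, 31 of the 35 were called. The counts that follow come from fits that did not use these numbers. Without DMSO replicate 2 the count was 0, without replicate 1 or 2 at 0.2 µM it was 5 and 4, and without the 0.34 µM library it was 7.

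RBBP4 also serves the chromatin assembly factor, polycomb and histone deacetylase complexes. Of 14 other subunits of these, 3 fell and 0 rose, against 2.73% and 1.29% of all genes tested. Their median log2 fold change was -0.49, close to the -0.47 of RBBP4 itself. Those that fell were CHAF1B with -2.82 (SE 0.24), EZH2, the polycomb methyltransferase, with -2.43 (SE 0.23), and CHAF1A with -2.28 (SE 0.20). All 3 lost their calls without DMSO replicate 2, the CHAF1 genes also without replicate 2 at 0.2 µM and EZH2 without DMSO replicate 1, with adjusted p-values of up to 0.0169. The CHAF1 genes are also on the G1/S list.

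The relatives of the 10 genes were few. RBBP7, the close homologue of RBBP4, was at 172 and 196 CPM in DMSO and between 84.5 and 93.3 CPM in doxorubicin, and it fell with a log2 fold change of -1.06 (SE 0.14, adjusted p = 0.00581, same edgeR test). With 1 library left out it lost its call in all 5 fits, with adjusted p-values of 0.0119 to 0.0476. The 95% intervals of RBBP7 (-1.39 to -0.73) and RBBP4 overlapped. MYB, which encodes c-MYB, was at 1.75 and 4.7 CPM in DMSO and between 0.0827 and 0.79 CPM in doxorubicin, a log2 fold change of -3.23 (SE 0.85, adjusted p = 0.0523, same edgeR test). TFDP3 had at most 0.0416 CPM in any library, and TESMIN, the germ line relative of LIN54, matched no symbol of the table used here.

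**Figure D4:**
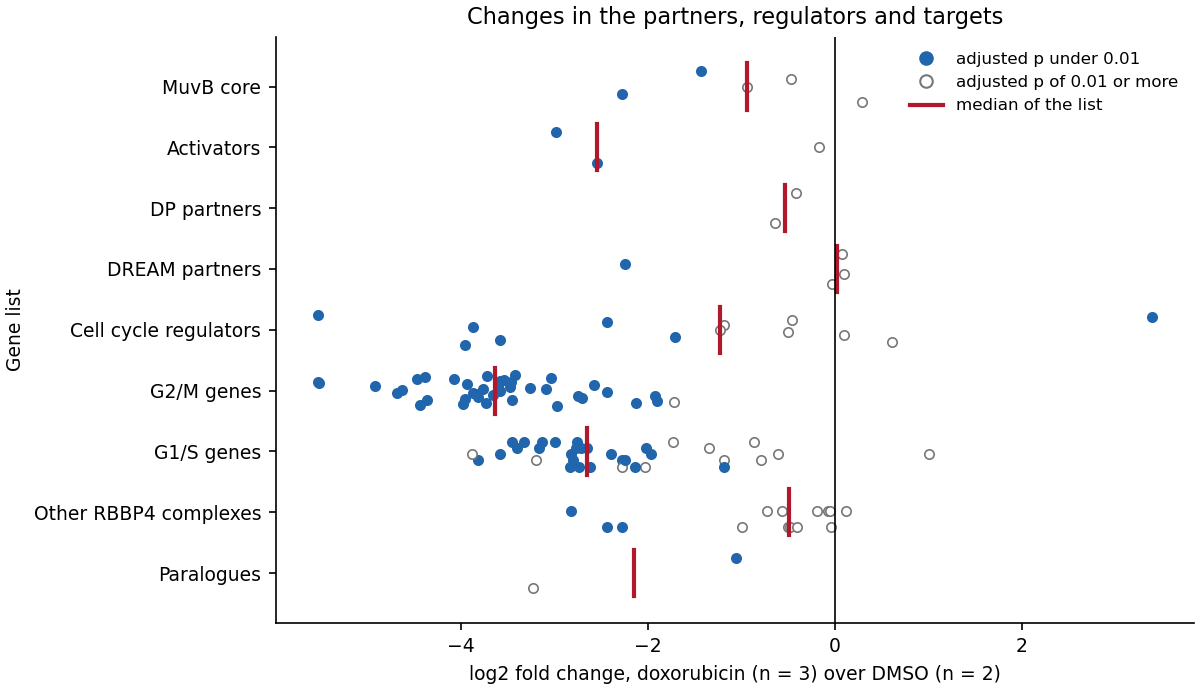
log2 fold change of each gene of the lists in doxorubicin (n = 3) over DMSO (n = 2), filled where the adjusted p of edgeR's test was under 0.01, with a red bar at the median of each list. The G2/M and G1/S genes lie furthest to the left with medians of -3.63 and -2.65, the activators have a median of -2.55 and the core one of -0.94, and the DREAM partners lie around 0 except for RBL1.

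The genes whose profiles over the 5 libraries were most like those of the activators were found by the Euclidean distance between mean-centred log2 CPM. For FOXM1 they were KIAA1524, HAUS8 and EZH2, at distances of 0.116, 0.148 and 0.162. For MYBL1 they were EMC2, EMBP1 and ATAD2B, at distances of 0.111, 0.123 and 0.147. These 3 were chosen by likeness over the same libraries, so a like gap between the DMSO libraries follows from the choice. Replicate 2 was at 0.603, 0.540 and 0.552 times replicate 1, against 0.551 for MYBL1. For MYBL2 the nearest genes were INCENP, ARHGAP11B and NES, at larger distances of 0.5, 0.594 and 0.679. The low value of MYBL2 in replicate 2 at 0.2 µM, 8.27 against 17.4 CPM, was not matched in size by INCENP, with 12.4 against 16.3 CPM.

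**Figure D5:**
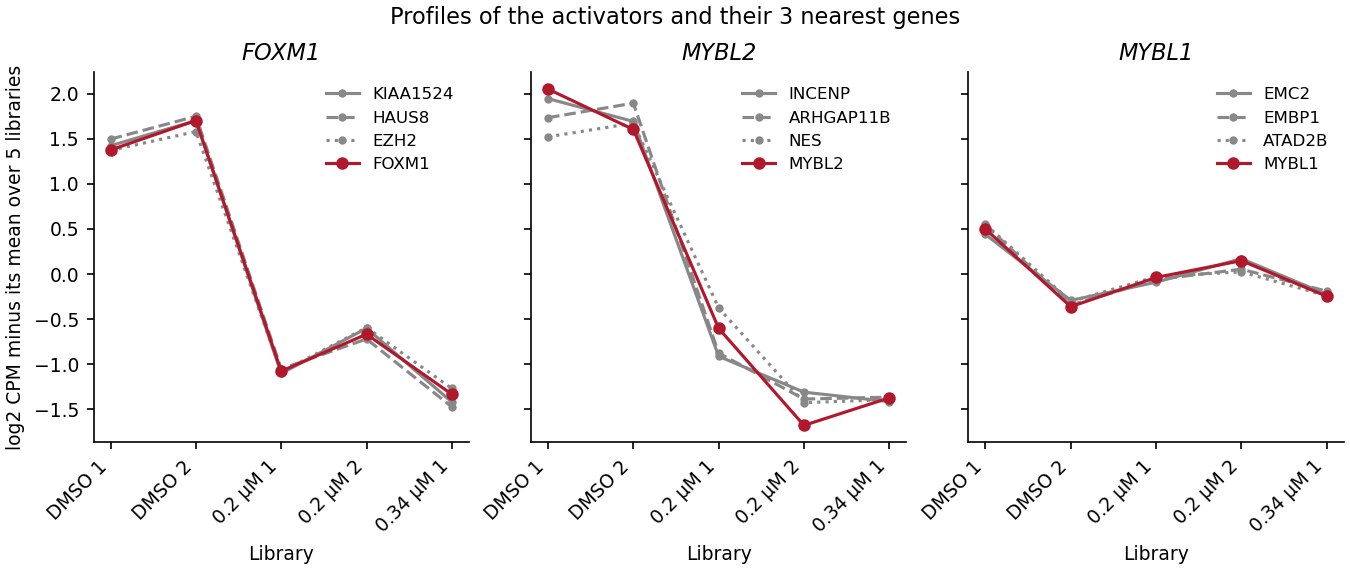
log2 CPM of FOXM1, MYBL2 and MYBL1 (red) and of the 3 genes nearest to each (grey), minus the mean over the 5 libraries, with lines that only join the values of 1 gene. FOXM1 and MYBL2 split by treatment. For MYBL1 the widest gap is between the DMSO libraries, as it is for the genes chosen for likeness to it.

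Some of the 10 genes share their start or part of their length with another gene. The sources used here do not give the strand setting of the counting. It is therefore not known to which gene reads in an overlapping stretch were assigned. By the GENCODE annotation on GRCh37, FOXM1 starts 49 bases from TULP3 and 916 bases from RHNO1 on the other strand, and it overlaps RHNO1 over 917 bases and ITFG2 over 2112. RHNO1, which acts in the response to stalled replication, fell with a log2 fold change of -1.07 (SE 0.16, adjusted p = 0.00827, same edgeR test), from 51.7 and 46.7 CPM in DMSO to between 21.7 and 25.8 CPM in doxorubicin, and lost its call in all 5 fits that left out 1 library (adjusted p of 0.0169 to 0.0595). TULP3 was at 139 and 71.7 CPM in DMSO and between 40.2 and 53.3 CPM in doxorubicin, with a log2 fold change of -1.16 (SE 0.28, adjusted p = 0.0416, same edgeR test). ITFG2 had a log2 fold change of 0.12 (SE 0.21).

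The genes that start beside LIN52 and RBBP4 had values of the other sign and did not pass the test. ALDH6A1, 464 bases from LIN52, had a log2 fold change of 0.58 (SE 0.18, adjusted p = 0.0765, same edgeR test), and ZBTB8OS, 239 bases from RBBP4, had one of 0.04 (SE 0.20). SYNC overlaps RBBP4 over 6306 bases and THAP9 overlaps LIN54 over 9997 bases on the other strand, with log2 fold changes of 0.32 (SE 0.33) and -0.22 (SE 0.40). LIN37 overlaps annotated genes on both strands that the count table does not list by name. RBBP4 has 7 annotated pseudogenes and TFDP1 has 3, and how reads that map to several places were treated is not given, so their levels are uncertain to that extent.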

How the data were processed

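Poly-A RNA of 5 RPE1 libraries was sequenced by the authors in paired-end mode. A table of unnormalized read counts per gene was deposited by the authors. The submitters' processing notes name STAR, featureCounts, DESeq2 and the build hg38. The sources used here give no versions, no strand setting and no rule for reads with several places. The library kit keeps strand, per the labels. A second table, deposited by the authors, holds, for genes under an adjusted p-value of 0.01 in their own comparison, a mean normalized count, a log2 fold change, its standard error, a test statistic and p-values. It was not used.

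The deposited counts were fitted with edgeR 4.0.16 in R 4.3.3. The quasi-likelihood test compared 3 pooled doxorubicin libraries with 2 DMSO libraries, as the study pooled them, after TMM normalization and the default filter (minimum count of 10, minimum total of 15). P-values were adjusted by Benjamini-Hochberg over all 14187 genes tested, with a threshold of 0.01. Doses were compared in a fit of 3 conditions. Standard errors are the absolute log2 fold change over the square root of the F statistic. Mean-centred log2 CPM used a prior count of 2. Alternatives were DESeq2 1.42.0 and limma 3.58.1 (voom), DESeq2's size factors, no filter, a threshold of 0.05, the 0.2 µM libraries only, each library left out, a replicate block and another gene length. Figures were drawn with matplotlib. The scripts were tested on simulated counts.

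The genes and lists were chosen with earlier results of these data known. Of the lists, all DREAM partners and relatives are named, and of longer lists the 3 genes with the largest change past the threshold and 10 fixed ones. A further regulator is not reported here. Gene lengths and overlaps come from GENCODE on GRCh37, positions and promoters from RefSeq on GRCh38.p14. Libraries of 1 condition differed by far more than sampling noise (chi-square per degree of freedom of 117 for DMSO and 75.3 for 0.2 µM for genes whose pair held at least 20 counts), so all were counted as separate.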

Additional observations from a re-analysis of the deposited data

How the results depend on the processing

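Of the 10 genes, 4 passed the threshold, and 4 to 5 did with DESeq2's size factors, DESeq2, limma voom, no filter or a threshold of 0.05. With the 0.2 µM libraries only, the count was 1, and leaving out 1 other library gave 0 to 2. Over the partners, regulators and targets, 67 different genes passed, and 17 to 53 did with 1 DMSO or 0.2 µM library left out. The range was 17 to 37 for the G2 and mitotic genes and 0 to 18 for the G1/S genes, of which 7 passed with the 0.2 µM libraries only. Between the doses the count was 0 in every fit. In the labels, the DMSO and 0.2 µM libraries have only replicate numbers in common. Neither the main test nor the fits that left out 1 library used these numbers as pairs. The differences of replicate 1 and 2 in DMSO and at 0.2 µM had a correlation of 0.528 across genes, so they recur in part. With the replicate block in a fit without the 0.34 µM library, the counts were 4 of the 10 genes and 78 over the lists. The counts over the lists also take in the relatives and the other RBBP4 complexes. The 78 included 40 G2 and mitotic genes and 31 G1/S genes. In the main fit, 2.73% of all genes tested were called lower and 1.29% higher. The shares in the fits with a library left out or with the block are not given here. The counts from those fits therefore have no background beside them.

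The direction reversed for a few genes near 0, none of them called. With 1 library left out, MYBL1 ranged from -0.55 to 0.32 on the log2 scale, E2F4 from -0.19 to 0.12, E2F5 from -0.16 to 0.21 and RBL2 from -0.077 to 0.26. With the replicate block E2F4 was at 0.0034. The cause was not tested. The log2 fold changes of the other 9 of the 10 genes kept their sign in all these fits. Among the 10 genes the lowest count behind a call was 68 reads, for LIN9, and the lone 0.34 µM library has no replicate.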
